A study of Mus musculus with 4 samples.

Results

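Listed ATAC-seq peaks were examined at 38 mouse genes of the Wnt pathway. They comprise all 19 Wnt ligands, 10 Frizzled receptors with the co-receptors Lrp5 and Lrp6, β-catenin (Ctnnb1) with the scaffold genes Axin1 and Axin2, and the 4 Tcf/Lef factors. The genes were chosen by name, and the regions were every listed region over or within 20 kb of a gene body on the mouse build GRCm38. That gave 685 regions, of 181682 within 20 kb of 21627 protein-coding genes and 256632 in the whole series. An end peak is a listed peak within 1 kb of either end of a gene body.

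Wnt ligands are secreted lipid-modified proteins that bind a Frizzled receptor together with Lrp5 or Lrp6. Without a ligand, a destruction complex scaffolded by Axin1 or Axin2 marks β-catenin for degradation, and with a ligand β-catenin accumulates and enters the nucleus. There it binds Tcf/Lef factors, which otherwise repress their targets. In mouse pluripotent cells Tcf7l1 is known as a repressor of pluripotency genes that β-catenin relieves, and Wnt3 is needed for gastrulation. Other ligands, such as Wnt5a and Wnt11, are known mainly for signalling that does not use β-catenin.

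Open chromatin had been profiled in 4 populations with 1 library each, so differences have no replicate check and carry no test or p-value. The first, called the intermediate here, came from embryonic fibroblasts that carried a Nanog-CreER reporter, with parents labelled Rosa26-TdTomato (B6, female) and Col1a-OSKM (129, male). They received doxycycline and 4-hydroxytamoxifen from day 1 to day 9 to express Oct4, Sox2, Klf4 and Myc (OSKM). This was the first step towards neural stem cells, with 6 days in a first medium and 3 days in a second. A JAK1 inhibitor at 0.5 µM was also used. Cells in which the Nanog-driven Cre had switched on tdTomato were then sorted without feeder cells. The title of that library says day 9 and its source field day 6. The others were induced pluripotent stem cells (iPSC, strain and transgene labelled A12, Mbd3 flox/-), v6.5 embryonic stem cells (ESC) and mouse embryonic fibroblasts (MEF, also A12, Mbd3 flox/-). The labels state no culture medium for iPSC, ESC or MEF. Strain labels differ between the intermediate, ESC and the A12 pair, so strain and cell state cannot be told apart in those comparisons. No unsorted OSKM cells were profiled, and passage through Nanog activity was part of how the intermediate was chosen.

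The lists held 133235 peaks in the intermediate, 132875 in iPSC, 129533 in ESC and 157212 in MEF on the chromosomes compared. Each peak has a height, a whole-number signal from the authors' processing that nothing in the files scales to library size. Heights therefore rank peaks within a list, and listed heights of several libraries set side by side do not measure differences in accessibility. Peaks of the 4 lists that shared a base were merged into regions, a region was open in a library that had a peak in it, and closed means only that no peak was listed. Fewer cells with an open site and less opening per cell cannot be told apart in such bulk lists. By end peaks, pluripotency, fibroblast, epithelial and neural stem markers set MEF apart from the other 3 libraries and did not separate those 3. Of 7 pluripotency markers, 6 had an end peak in the intermediate, 7 in iPSC, 7 in ESC and 0 in MEF, and of 7 fibroblast markers 2 had one in the intermediate, 3 in iPSC, 4 in ESC and 7 in MEF. Of 6 epithelial markers, 6 had an end peak in the intermediate, 6 in iPSC, 6 in ESC and 1 in MEF, and of 4 neural stem markers 4 had one in the intermediate, 4 in iPSC, 4 in ESC and 1 in MEF. Of 4 endothelial markers 0 had one in the intermediate, 2 in iPSC, 1 in ESC and 1 in MEF, and of 4 myeloid markers 2 in the intermediate, 2 in iPSC, 2 in ESC and 3 in MEF. The part of such cell-type differences in the members' values was not tested.

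Promoter sequences from RefSeq (GRCm38.p6) matched 27 of the 38 members, with 36 listed transcription starts. Not matched were Wnt5a, Wnt7b, Wnt8a, Wnt10a, Fzd2, Fzd3, Fzd6, Fzd8, Lrp5, Lrp6 and Axin1. A peak overlapped the 300-base promoter window, 250 bases before to 50 after the start, at 26 of 36 starts in the intermediate, 29 in iPSC, 31 in ESC and 30 in MEF. These shares are 72.2% in the intermediate (57.5% over 21044 protein-coding starts), 80.6% in iPSC (61.2%), 86.1% in ESC (63.2%) and 83.3% in MEF (59.6%). The members' promoters were rich in G and C. Their median GC content over the 250 bases was 71.2%, against 55.6% over all starts, and their observed-to-expected CpG ratio had a median of 0.780, against 0.537 over all starts. Among starts with a peak in every library, the medians were 72.8% and 0.862 at the members and 62.0% and 0.772 over all genes.

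The Tcf/Lef binding motif CTTTGAT was searched in the 250 bases on both strands, with no other motif beside it. It stood in 2 of the members' 36 windows (5.56%), at Wnt5b and Wnt11, and in 600 of 21044 windows overall (2.85%). A match describes letters and is no evidence of binding. The 6 windows printed here are those 2 and the 4 whose listed start gained or lost a peak within 1 kb in the intermediate against MEF. Wnt9b and this choice of 6 were made after the values were seen. Each runs 5′ to 3′ on the gene's strand and ends at the base before the start, and capitals mark the motif. Wnt1 is at chr15:98789607-98789856 (plus strand), Wnt4 at chr4:137277385-137277634 (plus), Wnt9b at chr11:103749822-103750071 (minus), Wnt10b at chr15:98778151-98778400 (minus), Wnt5b at chr6:119449387-119449636 (minus) and Wnt11 at chr7:98834862-98835111 (plus).
Wnt1: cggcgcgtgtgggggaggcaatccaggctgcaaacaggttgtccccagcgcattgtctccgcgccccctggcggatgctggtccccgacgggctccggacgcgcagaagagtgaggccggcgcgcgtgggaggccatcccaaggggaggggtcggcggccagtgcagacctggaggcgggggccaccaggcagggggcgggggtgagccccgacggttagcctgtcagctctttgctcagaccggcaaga
Wnt4: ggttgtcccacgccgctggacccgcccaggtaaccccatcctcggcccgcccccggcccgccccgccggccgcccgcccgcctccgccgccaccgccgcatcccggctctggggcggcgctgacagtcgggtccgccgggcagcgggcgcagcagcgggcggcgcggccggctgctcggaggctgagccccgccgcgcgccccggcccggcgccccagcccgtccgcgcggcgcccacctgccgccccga
Wnt9b: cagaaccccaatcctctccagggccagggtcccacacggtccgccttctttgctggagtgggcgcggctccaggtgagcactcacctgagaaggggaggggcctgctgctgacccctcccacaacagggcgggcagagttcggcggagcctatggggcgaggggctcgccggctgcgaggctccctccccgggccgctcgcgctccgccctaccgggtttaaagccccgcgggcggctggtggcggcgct
Wnt10b: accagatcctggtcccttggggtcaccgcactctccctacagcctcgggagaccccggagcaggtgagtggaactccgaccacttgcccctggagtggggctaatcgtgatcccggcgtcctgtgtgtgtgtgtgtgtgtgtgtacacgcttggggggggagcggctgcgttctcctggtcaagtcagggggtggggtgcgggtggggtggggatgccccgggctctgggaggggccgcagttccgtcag
Wnt5b: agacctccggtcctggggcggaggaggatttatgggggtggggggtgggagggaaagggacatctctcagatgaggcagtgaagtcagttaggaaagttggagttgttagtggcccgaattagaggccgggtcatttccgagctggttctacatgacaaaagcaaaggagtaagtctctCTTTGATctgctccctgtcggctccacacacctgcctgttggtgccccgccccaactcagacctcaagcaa
Wnt11: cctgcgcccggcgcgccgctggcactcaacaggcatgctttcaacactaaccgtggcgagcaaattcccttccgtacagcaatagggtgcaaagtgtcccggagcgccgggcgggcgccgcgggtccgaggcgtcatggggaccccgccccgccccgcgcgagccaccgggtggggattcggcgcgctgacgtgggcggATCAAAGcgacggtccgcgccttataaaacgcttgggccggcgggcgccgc

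The Wnt1 window held a peak in MEF alone, of height 39, and the Wnt10b window likewise, of height 33. The Wnt4 window held no peak in the intermediate, one of 45 in iPSC, 61 in ESC and 61 in MEF. The Wnt9b window had listed heights of 77 for the intermediate, 48 for iPSC and 89 for ESC, and no peak in MEF. Of these 4, chosen because they gained or lost a peak, Wnt9b was closed in MEF. Both windows with the motif were open in every library. The Wnt5b window had listed heights of 54 in the intermediate, 81 in iPSC, 57 in ESC and 53 in MEF, and its CTTTGAT began 71 bases before the start. The Wnt11 window had 31 in the intermediate, 28 in iPSC, 21 in ESC and 24 in MEF, and the motif's complement ATCAAAG began 51 bases before the start. Wnt4 had a GC content of 85.2%, Wnt9b 72.0%, Wnt1 71.6%, Wnt11 70.8%, Wnt10b 66.8% and Wnt5b 55.6%.

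Most members had an end peak in every population, and those that differed between lists were ligands and Axin2. Of 38 members, 30 had an end peak in the intermediate (background over all protein-coding genes 62.3%), 32 in iPSC (65.3%), 35 in ESC (67.2%) and 30 in MEF (64.3%). All 4 lists held one at 26 members (background 53.8%) and no list at 2, Wnt8b and Axin1 (25.0%). Either end counts, so the lists need not share a region, and at Wnt5a and Lrp5 no end region was open in all 4. Among the 19 ligands, 12 had an end peak in the intermediate, 15 in iPSC, 17 in ESC and 13 in MEF. All 12 receptors and all 4 Tcf/Lef factors had one in each list. Against MEF, the intermediate gained an end peak at 4 members, Wnt3a, Wnt6, Wnt8a and Axin2 (background 5.64%), and lost one at 4, Wnt1, Wnt4, Wnt5b and Wnt10b (7.64%). The calls depended on the window: within 2.5 kb the gain was Wnt8a alone and the losses Wnt1 and Wnt5b. At the listed starts of the 27 matched members the gain was Wnt9b and the losses Wnt1, Wnt4 and Wnt10b.

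**Figure D1:**
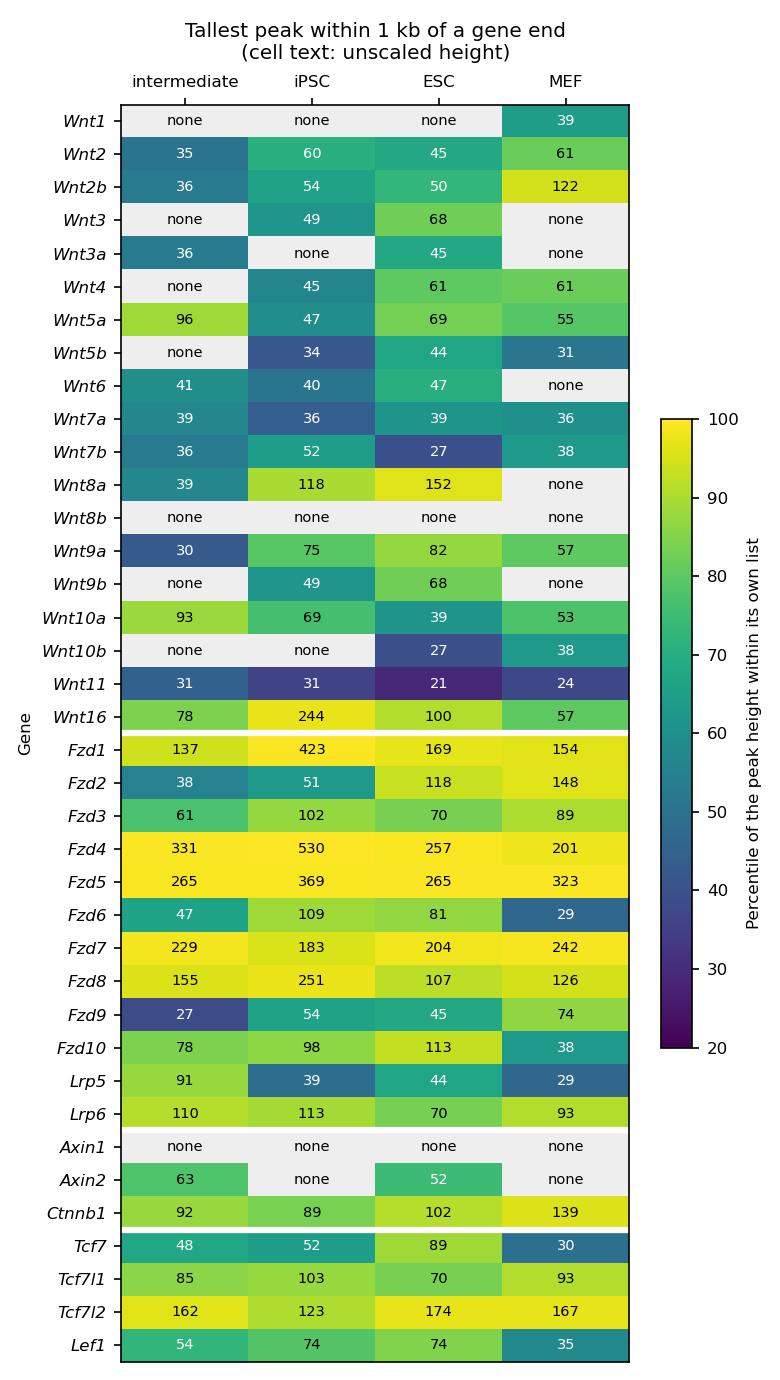
Tallest listed peak within 1 kb of either end of each of the 38 genes (rows) in the intermediate, iPSC, ESC and MEF (columns); the printed number is the unscaled height and the colour its percentile within its own list, with none for no peak. White lines separate ligands, receptors, the β-catenin group and the Tcf/Lef factors: all 12 receptors and 4 factors had a peak in every column, while 12 of 19 ligands had one in the intermediate, 15 in iPSC, 17 in ESC and 13 in MEF.

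The pluripotent lines gained partly different ends. iPSC gained an end peak over MEF at Wnt3, Wnt6, Wnt8a and Wnt9b (background 7.32%) and lost one at Wnt1 and Wnt10b (6.29%). ESC gained one over MEF at 6 members, Wnt3, Wnt3a, Wnt6, Wnt8a, Wnt9b and Axin2 (7.37%), and lost one at Wnt1 (4.50%). These comparisons and that of the intermediate share the MEF library. Set directly against iPSC, the intermediate had gained Wnt3a and Axin2 (4.61%) and lost Wnt3, Wnt4, Wnt5b and Wnt9b (7.64%). Against ESC it had gained 0 (3.24%) and lost Wnt3, Wnt4, Wnt5b, Wnt9b and Wnt10b (8.11%). Between the pluripotent lines, iPSC had gained 0 end peaks over ESC (2.72%) and lost Wnt3a, Wnt10b and Axin2 (4.56%). At Axin2, iPSC had a peak in the region that held the end peak of the intermediate, but outside the 1 kb window.

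Among the ligands, Wnt3, the Wnt of the primitive streak, had no region in the intermediate at all. It had 0 open regions there, 3 in iPSC, 11 in ESC and 2 in MEF. Its start lay in a region on chromosome 11 from 103773501 to 103774600 with no peak in the intermediate, a height of 49 in iPSC, 68 in ESC and no peak in MEF. Regions 34.5 kb and 42.3 kb past the start were also closed in the intermediate, open in iPSC (36 and 38) and ESC (50 and 38), and closed in MEF. The second of them is the far end of the gene. Neither the intermediate nor MEF had the start or these regions, and the tallest MEF region, of height 65, lay 5.90 kb past the start.

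Wnt9b, a ligand of the developing kidney, overlaps Wnt3 at that start, so the region counted as an end of both genes. Its own listed start lay farther inside its body, in a region from 103749321 to 103750460, with listed heights of 77 in the intermediate, 48 in iPSC, 89 in ESC and none in MEF. It was the only open region of the intermediate within 20 kb of Wnt9b, against 2 in iPSC, 11 in ESC and 3 in MEF. Counting both ends of the body, the intermediate thus lacked a Wnt9b end peak, and counting listed starts it had one.

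Wnt8a, a ligand of early mesoderm, had the tallest pluripotent end among the ligands that gained one. The region on chromosome 18 from 34540901 to 34542700 had listed heights of 39 in the intermediate, 118 in iPSC, 152 in ESC and none in MEF. Those ranked at percentile 57.0 of the intermediate list, 89.9 of iPSC and 96.1 of ESC. Regions past the gene differed, since one from 34551411 to 34552640 had 71 in the intermediate and 76 in ESC and no peak in iPSC or MEF. A region 11.1 kb past the body had a peak of 64 in the intermediate alone.

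The gained end peaks of Wnt3a and Wnt6 were not at their listed starts. Wnt3a, a classical activator of β-catenin, gained a peak of 36 in the intermediate at the far end of the body, 41.4 kb from the start, which no other list held. Its start held a peak of 45 in ESC alone. The tallest region of the intermediate within Wnt3a had a height of 94 from 59282091 to 59282611, 8.14 kb from the start, and was closed in iPSC, ESC and MEF. Wnt3a shares its window with Wnt9a, and 13 of its 22 regions were counted for both.

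At Wnt6, a ligand of epithelia, the gained end region from 74783801 to 74785100 on chromosome 1 had listed heights of 41 in the intermediate, 40 in iPSC, 47 in ESC and none in MEF. It lay 11.9 kb from the listed start, towards the neighbouring Wnt10a. A region 0.829 kb past the start was open in all libraries, with listed heights of 148 in the intermediate, 97 in iPSC, 112 in ESC and 101 in MEF. Wnt10a had an end peak of 93 in the intermediate, 69 in iPSC, 39 in ESC and 53 in MEF, and Wnt6 and Wnt10a shared 18 regions. The tallest region that MEF had in the Wnt6 window and the intermediate lacked, with 44 in iPSC, 33 in ESC and 92 in MEF, lay at the neighbouring gene Prkag3.

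Wnt1 and Wnt10b are neighbours on chromosome 15 that share most of their regions, and the intermediate lacked the start of both. Wnt1, the founding member of the family, had 9 open regions in the intermediate, 2 in iPSC, 5 in ESC and 14 in MEF, and 17 of its 20 regions were also counted for Wnt10b. Between the genes MEF alone had abutting regions of height 84 from 98780051 to 98780551 and 116 from 98780561 to 98781410, which lie 1.90 and 2.41 kb from the Wnt10b start. Wnt10b, known for promoting bone formation, had 8 open regions in the intermediate, 3 in iPSC, 4 in ESC and 15 in MEF. A region inside it from 98775791 to 98777811 was open in all libraries, with 37 in the intermediate, 39 in iPSC, 27 in ESC and 34 in MEF. The peaks of the intermediate and iPSC in that region ended over 1 kb short of the gene end, and those lists had no end peak. MEF had the most open regions of the 4 lists at both genes.

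Wnt4, a ligand of kidney and ovary development, lacked its start in the intermediate alone. The region from 137276481 to 137277941 on chromosome 4 had no peak in the intermediate, 45 in iPSC, 61 in ESC and 61 in MEF. The intermediate instead had 2 abutting regions 1.63 and 2.24 kb past the start, of heights 44 and 18, that no other list held. At Wnt4 the intermediate had 2 open regions, iPSC 1 and ESC 2, against 8 in MEF.

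Wnt5b had 3 listed starts that behaved differently. The one with the motif was open in all lists, as given above. The outermost, at the end of the gene body, had no peak in the intermediate, 34 in iPSC, 44 in ESC and 31 in MEF, and the middle one a peak of 44 in MEF alone. The gene still had the most open regions of any ligand in the intermediate, 20, in the widest window of the ligands (152 kb). It had 5 in iPSC, 11 in ESC and 12 in MEF, with 16 gained in the intermediate over MEF and 8 lost. With abutting peaks joined, the intermediate had 12 at Wnt5b and 11 at Wnt11. The tallest gained region, from 119414221 to 119415310 on chromosome 6, had 161 in the intermediate, none in iPSC, 29 in ESC and none in MEF, and lay within the neighbouring gene Adipor2. A region from 119481781 to 119482560 in the body of both Wnt5b and Fbxl14 had 115 in the intermediate and 30 in ESC, and no peak in iPSC or MEF.

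At Wnt5a the intermediate lacked regions of the gene's near part that ESC and MEF had, and it had others outside the body. The near end of the body, spanning 28504211 to 28505960 on chromosome 14, had no peak in the intermediate or iPSC, 26 in ESC and 55 in MEF. Inside the gene, the intermediate was closed from 28506181 to 28508220, where iPSC had 73, ESC 57 and MEF 59. It was also closed from 28509171 to 28510651, where iPSC had 53, ESC 37 and MEF 38. Past the far end, 0.673 kb from the body, a region had 96 in the intermediate, 47 in iPSC, 69 in ESC and none in MEF. Its next region, 5.91 kb out, had 89 in the intermediate and 27 in iPSC and no peak in ESC or MEF. The intermediate had 13 open regions at Wnt5a, and iPSC, ESC and MEF had 10 each. Of those 13, 10 were in no other list (background over all genes 49.5%).

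Wnt11 had 17 open regions in the intermediate, 8 in iPSC, 4 in ESC and 13 in MEF. The intermediate alone had a region of height 127 from 98866691 to 98867420 on chromosome 7, 11.9 kb past the gene, and one of 120 from 98873171 to 98874020. The second listed start, whose region spans 98837881 to 98839540, was taller than the one with the motif, at 95 in the intermediate, 78 in iPSC, 82 in ESC and 66 in MEF.

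Several ligands had an end peak in every list and lost more MEF regions than they gained. Wnt2b had heights at its start of 36 in the intermediate, 54 in iPSC, 50 in ESC and 52 in MEF, and MEF alone had a region of 122 at the other end, from 104944881 to 104945381 on chromosome 3. It lost 12 regions and gained 3. Wnt9a, with 30 at the start in the intermediate, 75 in iPSC, 82 in ESC and 57 in MEF, lost 17 and gained 1, the most uneven balance among the ligands. Wnt7b lost 11 and gained 4, and its tallest lost region, from 85541831 to 85542570 on chromosome 15, had no peak in the intermediate or iPSC, 152 in ESC and 160 in MEF. A second, from 85599881 to 85601060, had 39 in iPSC, 26 in ESC and 93 in MEF.

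The 9 ligands with an end peak in all 4 lists were Wnt2, Wnt2b, Wnt5a, Wnt7a, Wnt7b, Wnt9a, Wnt10a, Wnt11 and Wnt16. At Wnt5a the lists did not share an end, since the near one was closed in the intermediate and iPSC and the far one in MEF. The tallest end peaks of these 9 ligands ranged from 30 to 96 in the intermediate, 31 to 244 in iPSC, 21 to 100 in ESC and 24 to 122 in MEF. Wnt16 was the tallest of them in iPSC, with 78 in the intermediate, 244 in iPSC, 100 in ESC and 57 in MEF. Wnt7a, a ligand of limb and brain, had nearly even listed heights of 39 in the intermediate, 36 in iPSC, 39 in ESC and 36 in MEF. A region 1.07 kb inside Wnt7a had 52 in the intermediate, 89 in iPSC, 96 in ESC and none in MEF. Wnt2 had 1 open region in the intermediate, 9 in iPSC, 2 in ESC and 7 in MEF, and Wnt8b, a forebrain ligand, had no end peak and 4 open regions in the intermediate, 3 in iPSC, 2 in ESC and 2 in MEF.

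Each receptor had an end peak in every library, and the receptors held the tallest end peaks of the family. Fzd4, which also binds the ligand Norrin, had listed end heights of 331 in the intermediate, 530 in iPSC, 257 in ESC and 201 in MEF, which stood at percentile 99.6 of the list in the intermediate, 99.7 in iPSC, 99.3 in ESC and 98.1 in MEF. The Fzd4 end lies in the body of a neighbouring gene, Tmem135, so the peak is counted for both genes. Fzd5 had 265 in the intermediate, 369 in iPSC, 265 in ESC and 323 in MEF. Fzd7, a main Frizzled of mouse pluripotent cells, had 229 in the intermediate, 183 in iPSC, 204 in ESC and 242 in MEF. Fzd1 had 137 in the intermediate, 423 in iPSC, 169 in ESC and 154 in MEF. The lowest rank among these 4 receptors was percentile 94.3, for Fzd1 in the intermediate.

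Apart from Fzd8, given below, the other Frizzled genes had lower or more variable end heights, which are unscaled and give no change between libraries. Fzd2 had 38 in the intermediate, 51 in iPSC, 118 in ESC and 148 in MEF. Fzd3 had 61 in the intermediate, 102 in iPSC, 70 in ESC and 89 in MEF. Fzd6 had 47 in the intermediate, 109 in iPSC, 81 in ESC and 29 in MEF. All 4 lists thus held an end peak at each of these genes. Fzd9 had 27 in the intermediate, 54 in iPSC, 45 in ESC and 74 in MEF, and Fzd10 had 78 in the intermediate, 98 in iPSC, 113 in ESC and 38 in MEF.

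Around the Frizzled genes, the intermediate had some regions of the pluripotent lines and lacked others. At Fzd8, on chromosome 18, the end peak had 155 in the intermediate, 251 in iPSC, 107 in ESC and 126 in MEF. All 4 of its regions shared by iPSC and ESC and absent from MEF lacked a peak in the intermediate, including one 14.8 kb away with 120 in iPSC and 63 in ESC. Near Fzd7, a region from 59472181 to 59473880 on chromosome 1 was likewise closed in the intermediate, 67 high in iPSC, 62 in ESC and closed in MEF. At Fzd5, by contrast, a region inside the body from 64731381 to 64734441 on chromosome 1 had 131 in the intermediate, 153 in iPSC, 78 in ESC and none in MEF. A region in Fzd3 from 65245151 to 65246010 on chromosome 14 likewise had 52 in the intermediate, 57 in iPSC, 116 in ESC and none in MEF.

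The co-receptors had many regions that only the intermediate or only MEF listed. In MEF, 16 of 20 regions at Lrp6 and 12 of 16 at Lrp5 were in no other list (background 67.1%). Lrp6 had 21 open regions in the intermediate, 7 in iPSC, 8 in ESC and 20 in MEF, with 18 MEF regions lost. Of the 21 in the intermediate, 17 were in no other list (background 49.5%). Among them was the tallest gained region of the family, from 134569611 to 134570201 on chromosome 6, which reached 311 in the intermediate and was closed in iPSC, ESC and MEF. It lay 2.70 kb outside the gene body, beyond an end that was open in all libraries with 110 in the intermediate, 113 in iPSC, 70 in ESC and 93 in MEF. Lrp5 had 20 open regions in the intermediate, 4 in iPSC, 6 in ESC and 16 in MEF, with 17 of the 20 in no other list and 13 MEF regions lost. An end region of Lrp5 from 3585801 to 3586461 on chromosome 19 had 91 in the intermediate alone. The opposite end, from 3685581 to 3687220, had 46 in the intermediate, 44 in ESC and 29 in MEF and no peak in iPSC. The end peak of iPSC, of height 39, lay 0.996 kb outside the body there, in a region that no other list held.

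Listed peaks often abut, and each counts as a region of its own. At the members, the next peak lay within 10 bp for 49.1% of peaks in the intermediate, 39.4% in iPSC, 49.3% in ESC and 58.0% in MEF. With such peaks joined, Lrp6 had 10 open regions in the intermediate, 7 in iPSC, 8 in ESC and 11 in MEF, with 6 in the intermediate alone. Lrp5 had 12 in the intermediate, 4 in iPSC, 5 in ESC and 9 in MEF, with 9 in the intermediate alone. Joining also gave 8 gained and 5 lost at Wnt5b, 7 gained and 3 lost at Wnt11, 1 gained and 8 lost at Wnt9a and 8 gained and 12 lost at Tcf7l2. The gains at Wnt5a all lay outside the gene body, with 0 gained when the body alone was counted.

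At β-catenin and the Axin genes, the intermediate had gained 5 of 56 regions over MEF (8.93%, background 25.5%) and lost 30 (53.6%, background 36.5%), and 7 were open in all 4 lists. Axin2, a scaffold that is itself a frequent β-catenin target, had its listed start in a region from 108919601 to 108923400 on chromosome 11 with listed heights of 163 in the intermediate, 191 in iPSC, 182 in ESC and 179 in MEF. Its end peaks lay elsewhere. That of the intermediate (63) was near the far end of the gene, in a region from 108948351 to 108949980 that iPSC (50) shared but ESC and MEF did not. The iPSC peak in that region ended over 1 kb short of the gene end, so iPSC had no end peak. That of ESC (52) was at the near edge of the body, 2.31 kb before the start. The gain of an end peak at Axin2 was thus no gain at its start.

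Within Axin2, 4 regions were shared by iPSC and ESC and absent from MEF, and the intermediate had 2 of them. They were 42 for the intermediate, 44 for iPSC and 33 for ESC at 108941441 to 108942440, and 36 for the intermediate, 136 for iPSC and 36 for ESC at 108943491 to 108944280. The other two had 48 and 47 in iPSC and 33 and 21 in ESC. The tallest lost region, of 104 in MEF alone from 108897841 to 108898800, lay 19.0 kb outside the gene.

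Axin1 had no end peak in any list, but a region inside its body from 26137781 to 26139680 on chromosome 17 had 252 in the intermediate, 127 in iPSC, 250 in ESC and 243 in MEF. Ctnnb1, which encodes β-catenin, had a start of 92 in the intermediate, 89 in iPSC, 102 in ESC and 139 in MEF. Axin1 and Ctnnb1 each lost 10 MEF regions in the intermediate, 5 with abutting peaks joined, and gained 0. For Ctnnb1 the intermediate and iPSC had 2 open regions each, ESC had 9 and MEF 12.

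Lef1 had the largest surplus of gained over lost regions in the family. This factor, which activates targets with β-catenin, had 17 open regions in the intermediate, 22 in iPSC, 18 in ESC and 2 in MEF. The intermediate gained 15 and lost 0. Of these 17, 11 were in no other list, against 49.5% of the regions of the intermediate over all genes. Of 8 regions shared by iPSC and ESC and absent from MEF, the intermediate had 1 (background over all genes 40.3%). That region, from 131156141 to 131157000 on chromosome 3, had 46 for the intermediate, 45 for iPSC and 44 for ESC. The tallest pluripotent region, 7.41 kb before the first start at 131101751 to 131102890, had no peak in the intermediate, 164 in iPSC, 184 in ESC and none in MEF.

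The start of Lef1 was listed in every library, in a region from 131109481 to 131112890 with 54 in the intermediate, 78 in iPSC, 74 in ESC and 42 in MEF. The tallest Lef1 region of the intermediate, in the body from 131144041 to 131144980, had 138 in the intermediate and 82 in ESC and no peak in iPSC or MEF. The other MEF region, 33 in the intermediate, 62 in iPSC, 68 in ESC and 36 in MEF, lay 13.2 kb past the gene within Hadh. With neighbouring peaks joined, Lef1 had 12 open regions in the intermediate, 18 in iPSC, 12 in ESC and 2 in MEF. Of these, 10 were gained, 0 lost and 7 in the intermediate alone. Over all genes, 34.7% of the joined regions of the intermediate were in no other list.

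**Figure D2:**
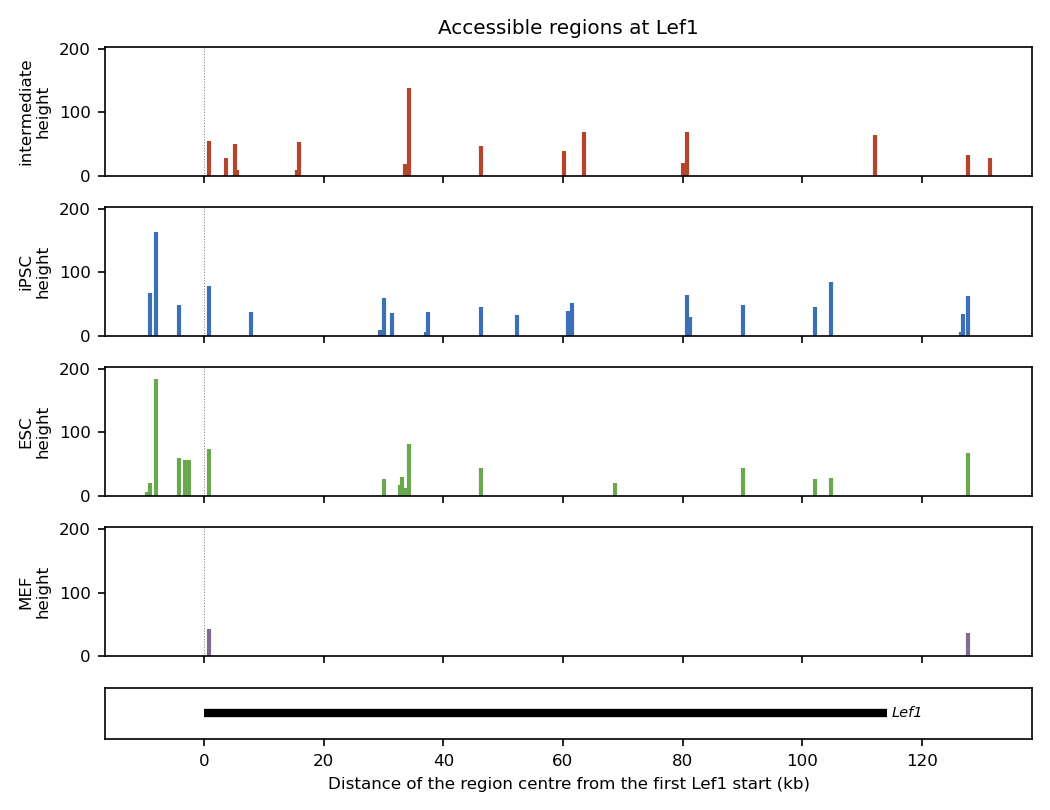
Listed regions at Lef1 by distance of the region centre from the first listed start (kb); bar height is the unscaled peak height in the intermediate, iPSC, ESC and MEF, and the bottom panel shows the gene body. The intermediate has 17 regions, iPSC 22 and ESC 18, against 2 in MEF at the start and past the gene, and the region 7.41 kb before the start has no peak in the intermediate but 164 in iPSC and 184 in ESC.

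Tcf7l1, the repressor named above, had 21 open regions in the intermediate, 16 in iPSC, 20 in ESC and 30 in MEF. Its start was open throughout, with 85 in the intermediate, 103 in iPSC, 105 in ESC and 93 in MEF over the region from 72786871 to 72790190 on chromosome 6. A region 5.35 kb before the start, from 72794391 to 72795920, had 301 in the intermediate, 50 in iPSC, 95 in ESC and none in MEF. Of 8 regions shared by iPSC and ESC and absent from MEF, the intermediate had 4, that one among them. Others were 100 for the intermediate, 34 for iPSC and 43 for ESC at 72769681 to 72770920, and 48 for the intermediate, 56 for iPSC and 63 for ESC 19.1 kb before the start. In the body, 2 regions open everywhere had 215 and 200 in the intermediate, 53 and 76 in iPSC, 42 and 97 in ESC and 68 and 68 in MEF. Tcf7l1 also lost 23 MEF regions, 22 of them found in MEF alone, and gained 14.

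Tcf7l2, the main partner of β-catenin in intestine, had 16 open regions in the intermediate, 14 in iPSC, 13 in ESC and 31 in MEF. It lost 25, the most of any member, all in MEF alone, and gained 10, in the widest window of the members (232 kb). With abutting peaks joined, Tcf7l1 and Tcf7l2 lost 12 each. The main start of Tcf7l2 had 162 in the intermediate, 123 in iPSC, 174 in ESC and 167 in MEF. The intermediate had some MEF regions that iPSC and ESC lacked, such as 134 in the intermediate and 34 in MEF from 55753891 to 55754970 on chromosome 19. Of the 2 regions shared by iPSC and ESC and absent from MEF it had 0.

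Tcf7, best known from T cells, had end peaks of 48 in the intermediate, 52 in iPSC, 89 in ESC and 30 in MEF, with 3 regions gained and 7 lost. Across the 4 factors, Lef1 was the only one with more regions gained than lost, and the joined counts gave 12 gained and 12 lost at Tcf7l1.

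Over all members the regions followed the rest of the genome closely in the comparison with MEF. Of 685 regions, 267 were open in the intermediate (39.0%, background 37.9%), 198 in iPSC (28.9%, background 35.1%), 228 in ESC (33.3%, background 31.7%) and 336 in MEF (49.1%, background 48.9%). The intermediate had gained 188 regions over MEF (27.4%, background 25.5%) and lost 257 (37.5%, background 36.5%). More regions were gained than lost at 13 members, and more were lost at 22. More gains were found at 34.2% of members, against 32.8% of all protein-coding genes, and more losses at 57.9% of members, against 46.6%. Gains and losses were equal at 3 of 38 members and at 4458 of 21627 genes. The median member had 15.5 regions and the median gene 10.0.

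**Figure D3:**
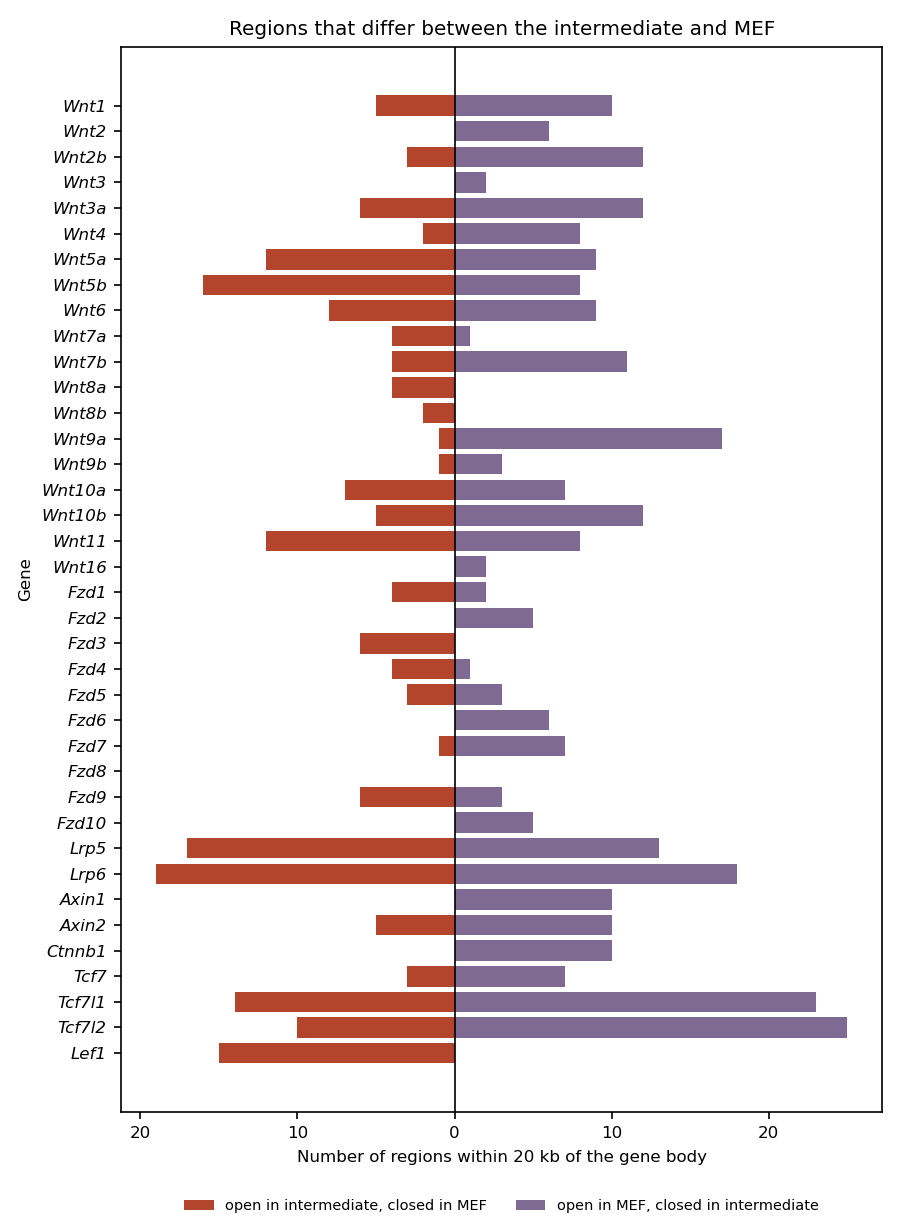
Number of regions within 20 kb of each of the 38 genes that were open in the intermediate and closed in MEF (left bars) or open in MEF and closed in the intermediate (right bars). Lef1 has 15 on the left and 0 on the right, Lrp6 has 19 and 18, and Tcf7l2 has 10 and 25.

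The other pairs differed from the background by a few points. Over MEF, iPSC had gained 117 regions (17.1%, background 22.9%) and lost 255 (37.2%, background 36.7%), and ESC had gained 134 (19.6%, background 19.0%) and lost 242 (35.3%, background 36.2%). Over iPSC, the intermediate had gained 182 (26.6%, background 23.2%) and lost 113 (16.5%, background 20.4%). Over ESC, it had gained 171 (25.0%, background 22.5%) and lost 132 (19.3%, background 16.3%). iPSC had gained 75 over ESC (10.9%, background 14.8%) and lost 105 (15.3%, background 11.4%). Such counts move with how peaks are divided. The share of abutting peaks was lowest in iPSC, and its part in these differences was not tested. With abutting peaks joined, the members had 421 regions, of which 186 were open in the intermediate, 173 in iPSC, 183 in ESC and 205 in MEF. By covered bases, peaks of every list took up more of the members' windows than of the windows of all genes. The shares were 6.35% in the intermediate (3.66% over all genes), 5.81% in iPSC (3.63%), 6.90% in ESC (3.59%) and 7.83% in MEF (4.15%).

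Of 50 pluripotent regions at the members, meaning those shared by iPSC and ESC and absent from MEF, 17 had a peak in the intermediate. That is 34.0% (Wilson 95% interval 22.4 to 47.8, which like all such intervals here covers counting error over regions only), against a background of 40.3%. Of 234 MEF-only regions, held by MEF but neither iPSC nor ESC, 12 had one, or 5.13% (2.96 to 8.75), against 5.65%. Of the 267 regions of the intermediate, 148 were in no other list, 55.4% (49.4 to 61.3), against 49.5%. All 3 intervals hold the value over all genes.

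Of 78 regions of the intermediate at receptors, 54 were in no other list, 69.2% (58.3 to 78.4). The co-receptors Lrp5 and Lrp6 held 34 of those 54, with 82.9% (68.7 to 91.5) of their own 41 regions. The 10 Frizzled genes had 20 of 37, or 54.1% (38.4 to 69.0), an interval that holds the value over all genes. At ligands the share was 55.2% (46.1 to 63.9), at the Tcf/Lef factors 47.5% (35.5 to 59.8) and at the β-catenin group 8.33% (1.49 to 35.4), where 1 of 12 was unshared. Among other pathway genes, the share was 68.8% (58.8 to 77.3) at the R-spondins with their receptors and ligases and 61.1% (47.8 to 73.0) at alternative receptors. Lgr6 alone held 37 of the 93 regions of the intermediate in the first of these groups, and Kremen1 held 25 of the 54 in the second. Neither group was counted with neighbouring peaks joined. On joining, the share was 68.2% (47.3 to 83.6) at Lrp5 and Lrp6 and 38.5% (22.4 to 57.5) at the Frizzled genes. That of receptors was 52.1% (38.3 to 65.5) and that of all members 39.8% (33.0 to 47.0), against 34.7% over all genes. Depth behind the lists is unknown, and its part in the unshared regions was not tested.

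**Figure D4:**
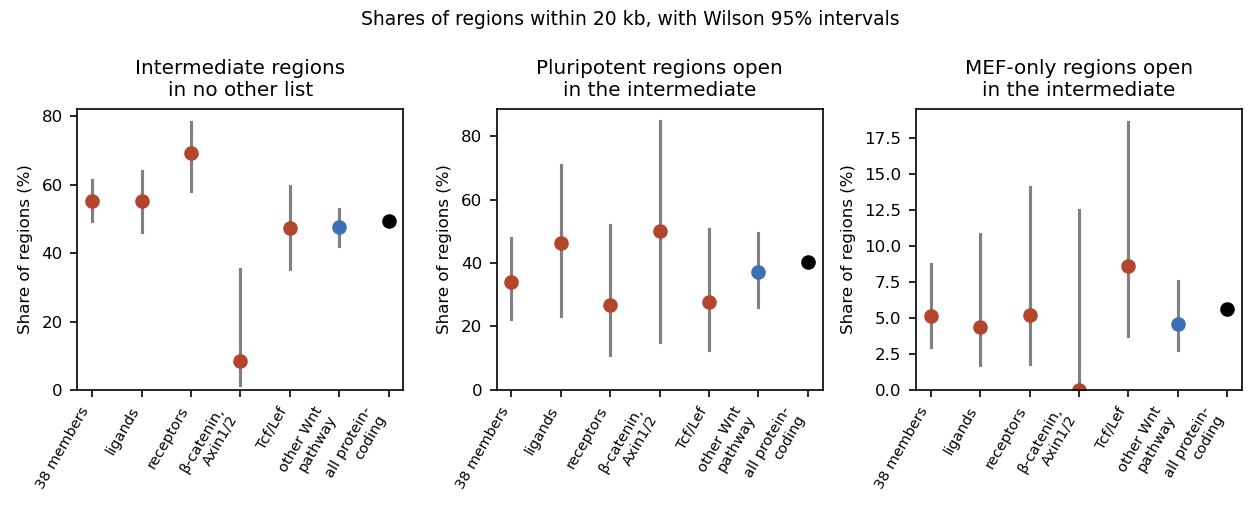
Share of regions (%) with Wilson 95% intervals (grey lines, counting error only) for the 38 genes, each role, 51 other Wnt pathway genes and all protein-coding genes, in 3 panels. Regions of the intermediate in no other list make up 69.2% at receptors, 34 of those 54 at Lrp5 and Lrp6, against 49.5% over all genes, while the shares of pluripotent regions (34.0%) and MEF-only regions (5.13%) open in the intermediate have intervals that hold the values over all genes, 40.3% and 5.65%.

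By shared bases, the members' windows had an overlap (Jaccard index, bases in both lists over bases in either) of 0.236 between the intermediate and MEF, 0.258 between iPSC and MEF and 0.297 between ESC and MEF. Over all protein-coding genes the index was 0.252 between the intermediate and MEF, 0.237 between iPSC and MEF and 0.276 between ESC and MEF. The index of the intermediate with iPSC was 0.285 at the members (0.307 over all genes) and with ESC 0.322 (0.357), and that of iPSC with ESC was 0.469 (0.486). At these genes the intermediate overlapped less with every other list than it did over all genes, by a few hundredths, and the indices have no replicate error.

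The rest of the pathway was counted over 51 further genes with 851 regions. End peaks were present at 44 in the intermediate (background 62.3%), 48 in iPSC (65.3%), 49 in ESC (67.2%) and 46 in MEF (64.3%). All 4 libraries had one at 42 (53.8%). The intermediate had gained an end peak over MEF at 1, Lgr6 (5.64%), and lost one at 3, Dkk3, Rspo1 and Pygo1 (7.64%). It had gained 201 regions (23.6%, background 25.5%) and lost 326 (38.3%, background 36.5%). Lgr6, a receptor for R-spondins, had an end height of 140 in the intermediate, 55 in iPSC, 74 in ESC and none in MEF, and 37 open regions in the intermediate, 4 in iPSC, 6 in ESC and 12 in MEF. Dkk3, a member of the Dickkopf family, had no open region in the intermediate, 8 in iPSC, 2 in ESC and 17 in MEF, and an end height of 155 in iPSC, 36 in ESC and 35 in MEF. Rspo1, an R-spondin that enhances Wnt signalling, had an end peak of 51 in ESC and 25 in MEF alone. Pygo1, a nuclear cofactor of β-catenin, had no end peak in the intermediate, 45 in iPSC, 54 in ESC and 32 in MEF.

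By role, all 10 cytoplasmic genes and all 5 alternative receptors had an end peak in every library (background 53.8%). At the 9 R-spondins, their receptors and the ligases Znrf3 and Rnf43, the intermediate had gained 78 regions over MEF (39.8%, background 25.5%) and lost 65 (33.2%, background 36.5%). Lgr6 alone held 36 of these gains and 11 of the losses, and the other 8 genes had 42 gained and 54 lost. At the 11 secreted inhibitors it had gained 22 (17.9%) and lost 49 (39.8%), of which Dkk3 held 0 and 17. Of 6 frequent targets, 4 had an end peak in the intermediate (background 62.3%), 6 in iPSC (65.3%), 6 in ESC (67.2%) and 4 in MEF (64.3%). The missing ones in the intermediate and MEF were T, the mesoderm factor Brachyury, with 58 in iPSC and 33 in ESC, and Cdx1, with 193 in iPSC and 51 in ESC. Neither gene had any open region in the intermediate, while MEF had 3 at T and 13 at Cdx1. The Cdx1 window reaches into the body of the neighbouring fibroblast marker Pdgfrb, which had 21 open regions in MEF. How many of the 13 regions were also counted for Pdgfrb was not determined, so they cannot be assigned to Cdx1 alone.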

How the data were processed

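Chromatin accessibility had been measured by ATAC-seq, where adapters are inserted into open DNA by a transposase, in 4 mouse populations with 1 library each. Per the labels' protocols, 50000 cells were transposed for 30 min at 37 °C and the DNA was amplified over 12 PCR cycles. Per the submitters' processing notes, the tools were MACS 1.4.2-1, Picard, Bowtie2 and CASAVA 1.8.2, on build mm10. Their settings and thresholds were not stated. The authors deposited 1 peak list a library, with start, end, summit and a height per peak; this height is a signal (pileup) value that no header describes and that carries no stated scaling. Read depth is unknown. Peak positions in the deposited lists fall on a 10 bp grid.

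Peaks on the 19 autosomes and X were kept, and those that shared at least 1 bp were merged across lists. Gene bodies and promoters came from RefSeq tables of GRCm38. Open, gained and lost refer to listed peaks; with 1 library a group no test was possible, and shares carry Wilson 95% intervals that cover counting error over regions only. The members and lists were chosen with earlier results of these data known. The rule for fuller description took members whose end peak was gained or lost in the intermediate against MEF, the 12 members with most regions, and owners of the 6 tallest gained and 6 tallest lost regions; other members are named by their end peaks, and further regions were chosen after their values were seen. Alternatives were joining peaks at most 10 bp apart, a minimum height of 20, lists of equal length, other end windows, gene bodies alone, a nearest-gene assignment and an overlap of 50%. Counting was tested on simulated lists. Python 3.11.15, numpy 2.4.6, pandas 2.3.3 and matplotlib 3.10.9 were used.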

Additional observations from a re-analysis of the deposited data

How the results depend on the processing

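No paired analysis was possible because each population had 1 library and the labels give no shared replicate numbers, and for the same reason no replicate could be left out. Joining peaks at most 10 bp apart gave 205 MEF regions at the members. Of the joined regions, 111 were gained (26.4%, against 24.6% over all genes) and 130 lost (30.9%, against 30.3%). The MEF-only share open in the intermediate was then 9.09% (9.57% over all genes) and the share in no other list 39.8% (34.7%). A height of at least 20 gave 44.8% for that last share. An overlap of 50% of the shorter peak gave 38.9%, with 13.0% for the MEF-only share. Values over all genes were counted with peaks joined, and not under the other alternative settings. Within 2.5 kb of an end, the intermediate gained 1 member and lost 2 against MEF, gained 1 against iPSC and lost 3 against ESC, ESC gained 3 against MEF, and iPSC lost 1 against ESC. At listed starts alone, the intermediate gained 1 against MEF, gained 1 and lost 2 against iPSC, iPSC gained 2 against MEF and ESC gained 3. Gene bodies alone had 155 open regions in the intermediate, 119 in iPSC, 136 in ESC and 182 in MEF, with 107 gained and 134 lost. Lists of equal length moved none of 25 values and the nearest-gene assignment none of 9. Of 76 counts of regions gained or lost at single members, 42 moved by over 1.5 times on joining and 42 with gene bodies alone. Apart from these constructions, the cause of the moves was not tested. The unknown depth and single libraries limit every comparison.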

Other observations

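Kremen1, a co-receptor of Dickkopf inhibitors named after its values were seen, had 23 regions gained in the intermediate over MEF and 11 lost. These counts come from single libraries and include abutting peaks.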
